A study of Caenorhabditis elegans with 2 samples.

Results

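Of the optimal peaks of RBR-2-GFP, 709 (20.6% of the list) were strong in only one of the 2 replicates. They were selected on the replicate signals themselves: a peak was counted as strong in a replicate when its summit lay within 200 bp of a summit among that replicate's highest-signal regions, taking as many regions as the optimal list has peaks. Replicate 1 alone held 351 of them (10.2%) and replicate 2 alone held 358 (10.4%). A further 2693 peaks (78.2%) were strong in both replicates and 40 (1.16%) in neither. Replicate rank chose these peaks, so their ranks and signals below are a description, without a test. On the nuclear chromosomes they were 707 of 3423 optimal peaks (20.7%). The label means strong once, not present once: 683 of the 709 (96.3%) also had a region within 200 bp in the weaker replicate's full list. The selection favours this too. A peak had to reach the optimal list by its pooled signal, to which both replicates contribute. The share is therefore not independent evidence of binding in the weaker replicate.

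The worms were whole hermaphrodites of strain OP195, a transgenic line that makes RBR-2 fused to GFP, collected as L4 larvae 56 hours after synchronisation from starved L1. Chromatin was sonicated and immunoprecipitated, and the DNA was sequenced (ChIP-seq). One label names an anti-GFP antibody and another gives rbr-2 as the antibody, so the source of the signal, tagged protein alone or untagged RBR-2 as well, was not tested. There was 1 group of 2 biological replicates and no other genotype, stage or treatment, so no groups were compared. In whole animals, binding in few cells and weak binding in many cells cannot be told apart.

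In worms the KDM5 histone demethylases, which remove methyl groups from lysine 4 of histone H3, are represented by RBR-2. Trimethylation of that residue marks the 5′ ends of active genes and is laid down by SET1/MLL complexes, which in worms include the methyltransferase SET-2. In ChIP-seq a peak is a stretch of genome with more fragments than a control. The irreproducible discovery rate (IDR) procedure behind the optimal list compares the ranks of peaks between replicates. The optimal list itself equals the highest regions of the pooled list by signal, so its peaks need not rank alike in both replicates. The deposited lists give a signal per region in the caller's own units. It was used for rank within a list. The lists hold no read counts, so sequencing depth is unknown.

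Sequences are shown around 6 summits near 5′ ends. In each direction they are the first 3 members by pooled signal whose window holds at most 30 bases of annotated transcript, leaving out one chromosome from which no sequence is shown. Each runs from 100 bases before to 100 bases after the summit on the plus strand, in build ce11 (WBcel235), read from the RefSeq genome, and none of these windows holds annotated transcript. Capitals mark matches to the motifs examined further on. The 3 windows from peaks strong in replicate 1 only lay 112 bp upstream of npp-20 (chrIV:1496034-1496234), 290 bp upstream of K06H7.2 (chrIII:8093183-8093383) and 119 bp upstream of cacn-1 (chrII:14142167-14142367):
npp-20: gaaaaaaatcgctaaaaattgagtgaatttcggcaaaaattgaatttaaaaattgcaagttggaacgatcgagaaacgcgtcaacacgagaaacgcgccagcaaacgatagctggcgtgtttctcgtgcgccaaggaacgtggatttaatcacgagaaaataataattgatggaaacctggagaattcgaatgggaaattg
K06H7.2: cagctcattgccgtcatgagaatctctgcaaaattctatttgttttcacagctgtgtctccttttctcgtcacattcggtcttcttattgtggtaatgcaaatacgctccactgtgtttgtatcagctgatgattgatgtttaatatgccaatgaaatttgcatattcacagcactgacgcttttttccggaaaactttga
cacn-1: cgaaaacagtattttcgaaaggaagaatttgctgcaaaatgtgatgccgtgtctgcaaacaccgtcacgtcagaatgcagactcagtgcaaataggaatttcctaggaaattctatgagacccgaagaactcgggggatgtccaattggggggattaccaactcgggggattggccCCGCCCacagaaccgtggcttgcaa

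The 3 windows from peaks strong in replicate 2 only lay 111 bp upstream of rde-4 (chrIII:10218657-10218857), 442 bp upstream of nfya-1 (chrX:11947180-11947380) and 335 bp upstream of pdi-1 (chrIII:3701696-3701896):
rde-4: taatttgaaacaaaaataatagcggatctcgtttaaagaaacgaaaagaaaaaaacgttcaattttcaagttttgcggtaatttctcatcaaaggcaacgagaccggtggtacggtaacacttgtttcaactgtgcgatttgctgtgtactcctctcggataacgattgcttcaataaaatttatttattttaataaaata
nfya-1: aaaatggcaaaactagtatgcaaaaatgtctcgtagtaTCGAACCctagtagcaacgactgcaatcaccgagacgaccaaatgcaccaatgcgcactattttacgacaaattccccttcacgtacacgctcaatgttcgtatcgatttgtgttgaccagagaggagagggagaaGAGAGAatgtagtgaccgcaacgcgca
pdi-1: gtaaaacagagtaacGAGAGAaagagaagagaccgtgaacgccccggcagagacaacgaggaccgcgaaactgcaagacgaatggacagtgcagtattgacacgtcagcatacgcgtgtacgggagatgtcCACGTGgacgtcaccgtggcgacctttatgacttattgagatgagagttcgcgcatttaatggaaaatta

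For comparison, a window from a peak strong in both replicates, among the strongest such peaks, lay 172 bp upstream of Y17G9B.5 (chrIV:4749968-4750168):
Y17G9B.5: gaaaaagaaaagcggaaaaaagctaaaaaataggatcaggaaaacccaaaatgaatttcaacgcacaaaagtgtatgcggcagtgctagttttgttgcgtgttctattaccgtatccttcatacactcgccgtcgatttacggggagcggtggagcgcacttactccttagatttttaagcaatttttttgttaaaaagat

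GC content of the 6 member windows ran from 32.3% at rde-4 to 49.8% at pdi-1, and that of the Y17G9B.5 window was 38.8%. The cacn-1 window holds CCGCCC, the nfya-1 window GAGAGA and TCGAACC, which is GGTTCGA on the other strand, and the pdi-1 window GAGAGA and CACGTG. The npp-20, K06H7.2, rde-4 and Y17G9B.5 windows hold none of the 7 motifs.

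One-replicate peaks lay at the weak end of the optimal list. The selection favours this, since pooled signal comes from the same 2 replicates whose ranks define the class. Their pooled signal had a median of 72.7 (quartiles 69 and 79.1), against 135 (99.7 and 203) for peaks strong in both. When the optimal list was divided into 10 equal parts by pooled signal, the weakest 2 parts held 507 of the 709 (71.5%) and the weakest 4 parts held 690 (97.3%). The strongest 5 parts held 8 (1.13%). The share of one-replicate peaks was 0.29% in part 1, the strongest, 14.8% in part 7, 38.4% in part 8, 69.5% in part 9 and 77.7% in part 10.

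**Figure D1:**
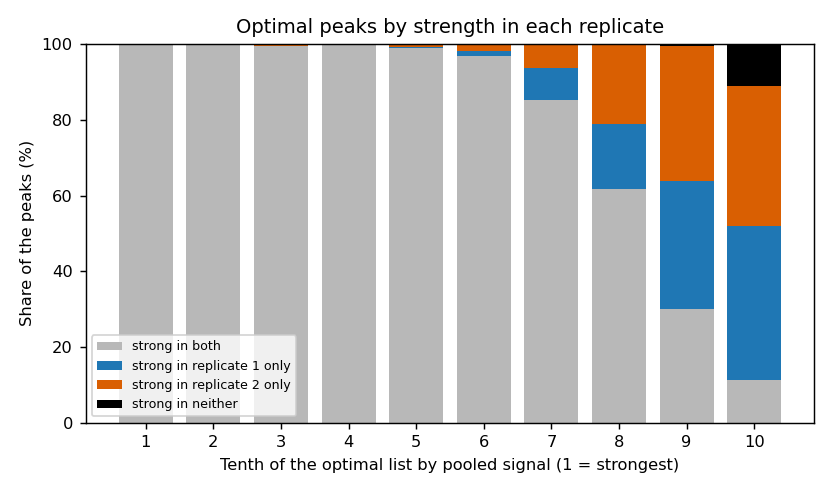
Share of optimal peaks (%, vertical axis from 0 to 100) strong in both replicates, in replicate 1 only, in replicate 2 only or in neither, for each of 10 equal parts of the list by pooled signal (horizontal axis, 1 is the strongest). One-replicate peaks make up 0.29% of part 1 and 77.7% of part 10.

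The weaker replicate usually placed these peaks not far below the limit. The requirement for a high pooled signal favours such ranks, so they describe the selected class only. The median rank was 2489 in the stronger replicate and, for the 683 with a region there, 4235 in the weaker. The weaker rank was within the first 4000 for 278 members (39.2% of 709), within 5000 for 494 (69.7%) and within 6884, which is 2 times the limit, for 622 (87.7%). It was beyond 10000 for 19. The signal at the rank limit was 32.3 in replicate 1 and 36.7 in replicate 2. Peaks strong in replicate 1 only had median signals of 41.7 in replicate 1 and 32.1 in replicate 2. Peaks strong in replicate 2 only had 27.4 and 46.2. Every member had a pooled signal of at least 65.2, above both medians in the stronger replicate.

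**Figure D2:**
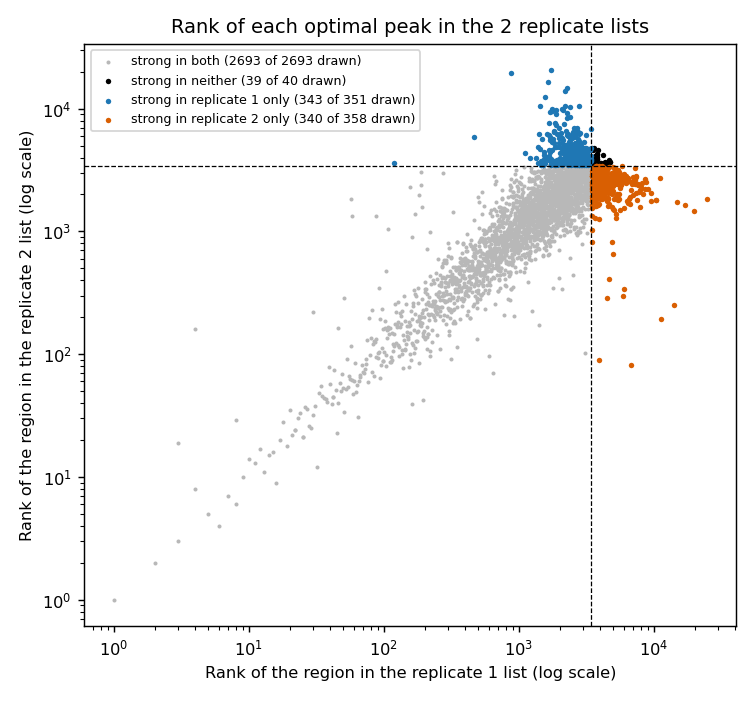
Rank of each optimal peak in the replicate 1 list (horizontal, log scale) and in the replicate 2 list (vertical, log scale), coloured by class, with dashed lines at the rank limit. Most one-replicate peaks crowd the corner where the lines cross, and the 26 with no region in one of the lists are not drawn.

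Peaks on either side of the limit had almost the same signals. The members nearest the limit in their weaker list were at exc-14 (rank 3447 in replicate 1, signal 32.3), pxd-1 (3448, 32.3) and nucl-1 (3449, 32.2). On the other side, the peaks at acer-1 and T28F12.1 counted as strong in both with ranks of 3433 and 3434 in replicate 1 (signals 32.4 and 32.3), and the peak at M01F1.9 with rank 3440 in replicate 2 (36.7). In their stronger list, the members nearest the limit were at F56A8.3 (the last rank inside it, in replicate 2), F13E6.1 (3431 in replicate 1) and F45D3.1 (3426 in replicate 2). The peaks at smgl-1, T19E7.6 and wht-3 just missed it in replicate 1, with ranks 3443, 3446 and 3457, and were strong in neither.

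Among members near a 5′ end and strong in replicate 1 only, the highest pooled signals were at rde-10, npp-20, T06E8.8 and npp-22. The peak 39 bp upstream of rde-10, an RNA interference factor, also lay within 500 bp of the start of rnp-6, a splicing factor gene. Its signal was 61.7 in replicate 1 (rank 1450) and 34.5 in replicate 2 (rank 3718), with 99 pooled. At npp-20, encoding the SEC13-type nucleoporin, signals were 65 (rank 1332) and 33.2 (rank 3936). At npp-22, encoding the NDC1-type membrane nucleoporin, they were 51.3 (rank 1874) and 35.4 (rank 3599). Both nucleoporin peaks were thus within the first 4000 regions of replicate 2.

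A summit 3 bp inside the 5′ UTR of hda-6, a histone deacetylase gene, had signals of 50.4 in replicate 1 (rank 1928) and 36.3 in replicate 2 (rank 3480). The peak 329 bp upstream of cnx-1, encoding the endoplasmic reticulum chaperone calnexin, had 54.6 (rank 1721) and 36 (rank 3521). At cacn-1, the worm cactin gene, the values were 54.7 (rank 1717) and 36.6 (rank 3453). All 3 were close outside the limit in replicate 2. The others of these 10 were at T06E8.8, K06H7.2, pgal-1, which encodes a peptide-amidating lyase, and D2005.4. Ranks of the 10 ran from 1332 to 1928 in replicate 1 and from 3453 to 3936 in replicate 2.

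Among members strong in replicate 2 only, the strongest near a 5′ end was 111 bp upstream of rde-4, which encodes the double-stranded RNA binding partner of Dicer in RNA interference. Its divergent neighbour cox-14, a cytochrome c oxidase assembly gene, also lay within 500 bp. The peak is 179 bp long (chr III, 10218685 to 10218863), with a pooled signal of 170.1. Its signal in replicate 2 was 93.9 (rank 868), and no region of the replicate 1 list overlapped it. The next, 438 bp upstream of T22C1.1, had 105 in replicate 2 (rank 717) and no replicate 1 summit within 200 bp, but it did overlap one of the top regions of replicate 1.

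The nfya-1 peak, at the gene for subunit A of the CCAAT-binding factor NF-Y, had signals of 73.3 in replicate 2 (rank 1324) and 32.1 in replicate 1 (rank 3470). The pdi-1 peak, at a protein disulfide isomerase gene, had 57.9 (rank 1873) and 32 (rank 3486). At vps-28, encoding an ESCRT-I subunit, values were 62.2 (rank 1667) and 29.4 (rank 3897). Other sites lay between divergent genes or near a pair of starts. A summit between gut-2, which encodes an Sm-like splicing protein, and eea-1 had 60.5 (rank 1745) and 30.6 (rank 3694). One near nucl-1, the nucleolin gene, and daf-31, an N-terminal acetyltransferase gene, had 60 (rank 1779) and 32.2 (rank 3449). The remaining 3 were at F15G9.5, at spp-26, whose summit also lies at a tRNA gene, and in the 5′ UTR of H12C20.7 near nhr-68.

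**Figure D3:**
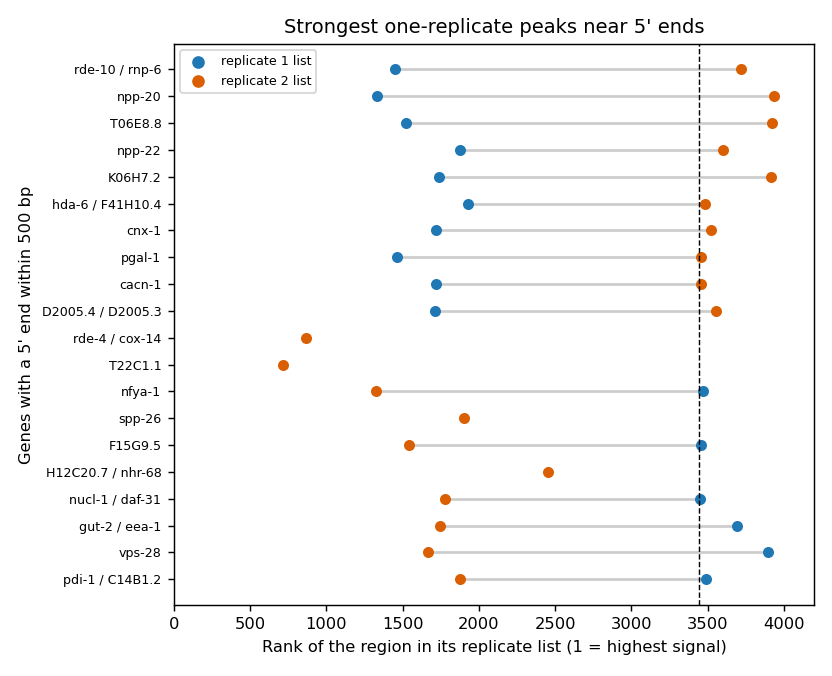
Rank in each replicate list (horizontal, 1 is the highest signal) of the 10 one-replicate peaks with the highest pooled signal near 5′ ends in each direction, with a dashed line at the rank limit. In 6 of the 10 peaks strong in replicate 2 only, both ranks are drawn, and the 4 single points had no replicate 1 region within 200 bp.

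Away from 5′ ends, the strongest nuclear member was strong in replicate 1 only and lay at a small nucleolar RNA gene. The C46C2.8 snoRNA peak (chr IV, 9191168 to 9191607, nearest protein-coding gene C46C2.5) had a pooled signal of 129, rank 1285 in replicate 1 and no replicate 2 region overlapping it. A summit in an intron of tspo-1, the translocator protein gene, had 73 in replicate 1 (rank 1105) and 30.6 in replicate 2 (rank 4395). One 513 bp upstream of smo-1, the SUMO gene, had 69.6 (rank 1202) and 32.9 (rank 3980). In the other direction, an intergenic peak of 125 bp nearest to twk-2, a potassium channel gene, had 97.8 in replicate 2 (rank 816) and 31.9 in replicate 1 (rank 3499).

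A region in one list and none in the other was the exception, which the pooled selection also favours. Of the 26 members with no summit of the weaker list within 200 bp, 17 still overlapped some region there and 9 did not. These 9 were singled out after their values were seen. They were strong in replicate 2 at rde-4, spp-26, H12C20.7, T26C5.5 and sahd-1, and in replicate 1 at C46C2.5, lgl-1, F56F4.4 and F19B6.1. The summit at lgl-1, the worm gene for the cell polarity protein Lgl, lay 136 bp upstream of it with a signal of 40.5 in replicate 1 (rank 2576). Those at C46C2.5, spp-26 and F56F4.4 lay at a snoRNA gene, a tRNA-Cys gene and a tRNA-Lys gene. At all 9 the pooled signal exceeded that of the stronger replicate, with 170.1 against 93.9 at rde-4 and 81.4 against 40.5 at lgl-1. The selection favours this too, since no member had a pooled signal under 65.2. Signals of different lists may not share a scale, so the excess says nothing of signal in the weaker replicate. A missing region in a list is not a measured absence of signal, and signal there in the weaker replicate was not tested.

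Part of the class came from the position of a summit. In 49 members (6.91%) the peak interval overlapped a top region of the weaker replicate whose summit lay over 200 bp away, 16 in replicate 1 only and 33 in replicate 2 only. In 12 of these, 2 and 10 by direction, the strong region that admitted the peak was nearer to the summit of another optimal peak. The 12 had a median rank of 316 in their stronger replicate, against 2493 for the other members. They included the members with the largest rank ratio, such as a peak nearest to C30E1.4 (rank 81 in replicate 2, 6795 in replicate 1), 1 in W06H8.6 (194 and 11236) and, in the other direction, 1 at K11D12.14 and pqn-51 (118 in replicate 1, 3587 in replicate 2).

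Among the 660 members (93.1%) that overlapped no top region of the weaker replicate, the best rank in the stronger replicate was 816. Their largest rank ratios are named after the values were seen. The first was 22.4 at an intergenic peak 2480 bp upstream of mstr-1 (868 in replicate 1, 19434 in replicate 2). A summit in a noncoding or pseudogene exon, 1246 bp upstream of the hormone-sensitive lipase gene hosl-1, had 13.4 (1838 in replicate 2, 24597 in replicate 1). A peak in an intron of dep-1, a receptor tyrosine phosphatase gene, followed with 11.8 (1732 in replicate 1, 20488 in replicate 2), and one in an intron of sma-9, the worm Schnurri gene, had 10.2 (1656 in replicate 2, 16959 in replicate 1).

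The 2 mitochondrial members were both strong in replicate 2 only, with ranks of 27 and 285 there. The first had no replicate 1 summit within 200 bp and the other had rank 4478 in replicate 1. Both overlapped top regions of replicate 1. They are left out of the shares that follow, which cover 707 nuclear members and 2676 nuclear peaks strong in both.

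Fewer of these peaks than of those strong in both lay near 5′ ends. A protein-coding 5′ end was within 500 bp of 267 of 707 members (37.8%, exact 95% interval 34.2 to 41.5%), against 1231 of 2676 (46%, 44.1 to 47.9%). The share was 39.6% in replicate 1 only and 36% in replicate 2 only. When both classes were limited to one range of pooled signal, without matching inside it, that order was not seen. Between signals of 69 and 79.1, the members' interquartile range, the share was 38% (134 of 353) in members and 36.1% (52 of 144) in peaks strong in both. The intervals here and below cover counting error only, since peaks are not replicates.

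Read the other way, 17.6% of all 1513 optimal peaks near 5′ ends and 23% of the 1910 distal ones were strong in one replicate only, beside the 20.6% of the whole list. In the signal range above, the shares were 71.3% and 69.1%.

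Near 5′ ends, members lay at much the same positions as peaks strong in both. The median position relative to the annotated start was −135 bp, with negative values upstream (quartiles −237 and −48), against −164 bp (−264 and −68). Of the 267 members, 221 (82.8%) were upstream, against 88%. In the signal range above, these shares were 82.1% and 84.6%. Both groups were fullest 100 to 200 bp upstream, with 33.7% of the members and 28.8% of the others. A summit between divergent 5′ ends was found for 57 members (8.06%) and for 10.8% of peaks strong in both.

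**Figure D4:**
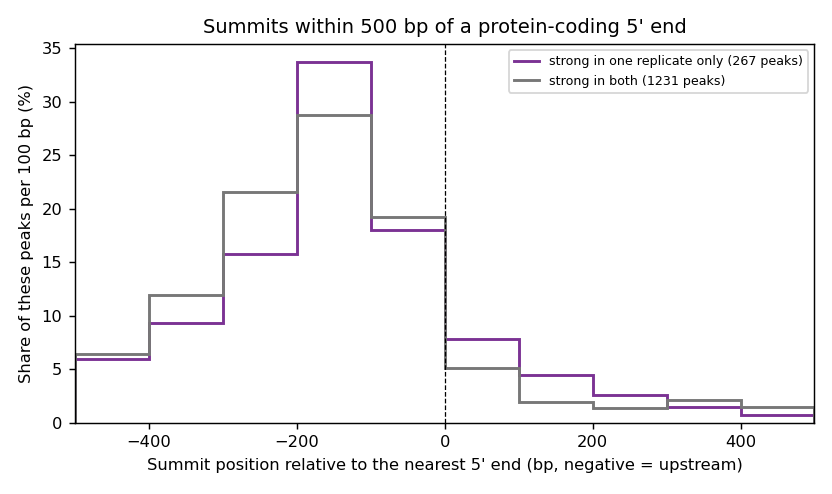
Share of the peaks within 500 bp of a protein-coding 5′ end (%, vertical) in bins of 100 bp by summit position (horizontal, bp, negative is upstream) for 267 one-replicate peaks and 1231 peaks strong in both. Both classes are highest 100 to 200 bp upstream, at 33.7% and 28.8%.

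Introns held 22.2% of members (157) against 18.3% of peaks strong in both, and intergenic DNA held 56.3% against 61.9%. Within the signal range the intron shares were 22.9% and 23.6%, and the intergenic shares 55% and 60.4%. The X chromosome held 17.4% of members (123, 14.7 to 20.4%) against 20.5% (19 to 22.1%), and chromosome V held 17.3% against 13.1%. Within the signal range those shares were 16.7% and 19.4% for X, and 15.9% and 14.6% for V. Median pooled signal was 123 for all optimal peaks on X and 107 for those on V, and the shares strong in one replicate only were 18.2% and 25.5%. The part of signal in these shares was not tested.

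**Figure D5:**
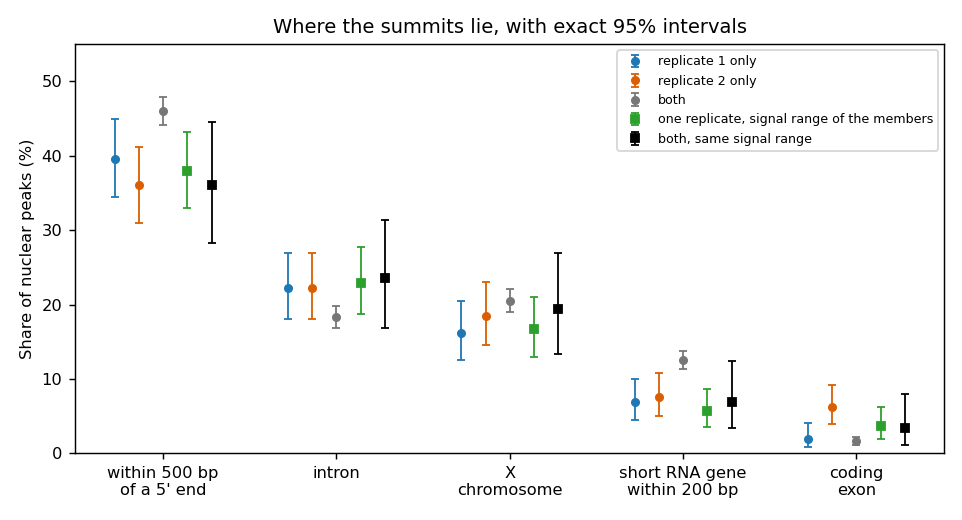
Share of nuclear peaks (%, vertical) with the summit within 500 bp of a 5′ end, in an intron, on the X chromosome, within 200 bp of a short RNA gene or in a coding exon, by class, with exact 95% intervals as bars. The intervals of the one-replicate and both classes overlap for all 5 features once limited to pooled signals of 69 to 79.1 (squares).

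Short RNA genes, counted within 200 bp of the summit, had few of these peaks. They were near 51 members (7.21%, 5.42 to 9.38%) and 334 peaks strong in both (12.5%, 11.3 to 13.8%). In the signal range the shares were 5.67% and 6.94%. The tRNA genes accounted for 44 members (6.22%), against 7.81%. In the signal range that order was not seen, with 18 of 353 members (5.1%) and 6 of 144 others (4.17%). The snoRNA genes accounted for 4 (0.566%), against 87 (3.25%), and of all 91 optimal peaks at snoRNA genes 4.40% were strong in one replicate only. Peaks at snoRNA genes had a median pooled signal of 176, and only 6 of the 91 fell in the signal range, of which 2 were members. The tRNA products from RefSeq were spread over 16 kinds, led by tRNA-Lys with 6 peaks, and tRNA-Gly and tRNA-Val with 5 each.

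By pooled signal, the strongest members at tRNA genes were a tRNA-Cys gene in an intron of twk-10 near spp-26 (105, rank 1901 in replicate 2, no replicate 1 region overlapping), a tRNA-Pro gene in clpp-1 (96.1, ranks 1617 in replicate 2 and 3679 in replicate 1) and a tRNA-Gly gene nearest to R02E12.5 (94.9, ranks 1643 and 3471). In replicate 1 only, the strongest were a tRNA-Cys gene in npr-13 (89.2, ranks 1854 in replicate 1 and 3465 in replicate 2) and a tRNA-Lys gene in hecw-1 (89.1, ranks 1656 and 4117).

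The directions differed in their shares in coding exons. These exons held 22 of the 356 nuclear peaks strong in replicate 2 only (6.18%, 3.91 to 9.21%), 7 of the 351 strong in replicate 1 only (1.99%, 0.805 to 4.07%), and 1.61% (1.17 to 2.16%) of peaks strong in both. Within the signal range the counts were 10 of 172, 3 of 181 and 5 of 144 (5.81%, 1.66% and 3.47%). Intergenic shares in that range were 58.6% in replicate 1 only and 51.2% in replicate 2 only. With 1 library on each side, the difference between directions has no replicate check, and a difference between the 2 libraries and one between the 2 cultures cannot be told apart.

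The exons are named after their values were seen and by no fixed rule, so no theme can be read from the names. In replicate 2 only they included suro-1 (signal 60.9 in replicate 2, rank 1730, against 13.1 in replicate 1, rank 14825), grl-14 (55, rank 1999, against 23.9, rank 5317) and the neuropeptide-like gene nlp-24 (42.5, rank 2831, against 19.4, rank 7378). They also included col-107, a cuticle collagen gene, phy-2, a prolyl 4-hydroxylase gene that acts on collagens, and rla-1, an acidic ribosomal protein gene. The col-107 summit lies within C34H4.5 as well, and its peak overlapped a top region of replicate 1. Wide gaps were also at lmd-2 (54.3, rank 2038, against 16.8, rank 9534) and where Y39A1A.9 and Y39A1A.10 overlap (59.3, rank 1799, against 16.1, rank 10292). In replicate 1 only the exons included mnk-1, the MNK-type kinase gene (55.4 in replicate 1, rank 1696, against 30.3 in replicate 2, rank 4451). Another was in unc-119 (35.8, rank 2995, against 28.9, rank 4818).

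Sequence composition differed from that of peaks strong in both by a few points. Median GC of the window around the summit, the length of those printed above, was 43.3% (quartiles 38.3 and 47.8) in members and 45.8% (40.8 and 50.7) in peaks strong in both. In flanks 500 to 700 bp away the medians were 35.4% and 36.2%. Within the signal range the summit medians were 42.8% and 44.3%. The 2 directions had medians of 43.3% in replicate 1 only and 42.8% in replicate 2 only.

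Motifs were searched on both strands of the same window. GAGAGA was in 294 members (41.6%, 37.9 to 45.3%), in 45.3% of peaks strong in both and in 9.99% of 498866 such windows tiled over the nuclear genome. TTTTTTTT was in 16.8% of members and 11.6% of peaks strong in both, below the 22.8% of genome windows, and TGATAA in 10.3%, 7.29% and 17.9%. CCGCCC was in 11.2% and 11.9%, against 3.16% of genome windows, and CACGTG in 5.23% and 5.27%, against 3.33%. The E2F-type letters, GCGCGAAA or GGCGGGAA, were in 3.96% and 3.70%, against 1.51%. GGTTCGA, the letters of the tRNA gene B box, was in 4.67% and 6.58%, against 1.45%. Matches to GAGAGA were thus over 4 times as frequent in members as in genome windows, as in peaks strong in both. In the signal range GAGAGA was in 42.8% of members and 40.3% of the others, and TTTTTTTT in 16.7% and 16%. CACGTG was there in 16 of 353 members (4.53%) and 1 of 144 others (0.694%), and the E2F-type letters in 3.68% and 1.39%.

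Repeated sequence, which can attract misplaced reads, was in few member windows. A 36-base stretch found elsewhere in the genome was in 70 member windows (9.90%) and in 13.6% of the windows of peaks strong in both, and in 7.37% and 6.25% in the signal range. Another optimal summit lay within 1000 bp of 11.3% of members, against 15% of peaks strong in both, and of 9.92% against 21.5% in the signal range.

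At the level of genes, 1890 protein-coding genes had an optimal summit within 500 bp of their 5′ end. For 332 of them (17.6%) the only such peaks were strong in one replicate, 179 in replicate 1 (9.47%) and 153 in replicate 2 (8.10%), with none strong in both. Another 7 genes had a one-replicate peak beside one strong in both. These shares are the background for the gene lists below, whose counts are small and were not tested.

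The list of enzymes of H3K4 methylation, the mark that RBR-2 acts on, and of their complex subunits had 6 genes with a peak. Of these, 4 had one strong in both replicates and 2 had one strong in replicate 1 only. The first was set-2, the SET1-type methyltransferase gene, with a summit 203 bp upstream (signals 44.8 in replicate 1, rank 2258, and 35.4 in replicate 2, rank 3602). The other was wdr-5.3, a paralog of the complex subunit WDR5, which shares a summit with the DNA repair nuclease gene mre-11 (34.1, rank 3199, and 33.4, rank 3901). Neither was far outside the limit in replicate 2.

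Of 63 cytosolic ribosomal protein genes with a peak, 4 (6.35%, against the background of 17.6%) had one strong in one replicate only. They were rpl-17, rpl-19, rps-2 and rps-6. The rps-2 peak, 269 bp upstream, had signals of 25.5 in replicate 1 (rank 4822) and 52 in replicate 2 (rank 2153). The count was 1 of 14 for mitochondrial ribosomal proteins (mrpl-40), 1 of 23 for translation factors (eif-2Bepsilon), 2 of 22 for the respiratory chain (cox-14 and ucr-1), 2 of 22 for chaperones (cct-5 and dnj-10) and 1 of 15 for histones. That histone gene was his-72, which encodes an H3.3-type histone (53.5 in replicate 1, rank 1771, and 35.9 in replicate 2, rank 3537).

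Of 20 nuclear pore and transport genes with a peak, 5 (25%, beside the background of 17.6%) had one strong in one replicate only. They were npp-20 and npp-22 in replicate 1. In replicate 2 they were npp-9, ran-3, the worm RCC1 gene, and xpo-3, an exportin gene. Of 16 cell cycle and replication genes with a peak, 4 (25%, beside the same 17.6%) had one strong in one replicate only. All 4 were in replicate 1. They were cdk-4, a G1 kinase gene (49.9 in replicate 1, rank 1950, and 35.2 in replicate 2, rank 3626, near F18H3.1), the origin licensing genes cdt-1 (37.4, rank 2840, and 29.5, rank 4636) and mcm-2 (34.5, rank 3129, and 36.2, rank 3487), and the polymerase subunit gene pole-4 (35.3, rank 3056, and 34.2, rank 3773).

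Nuclear hormone receptor genes, a large family in worms, had 10 members with a peak among 269. Of the 10, 5 had one strong in one replicate only, 2 in replicate 1 and 3 in replicate 2. They were nhr-105, nhr-119, nhr-35, nhr-58 and nhr-68. The nhr-35 peak had 30.3 in replicate 1 (rank 3743) and 51.3 in replicate 2 (rank 2194), and the nhr-105 peak 42 (rank 2458) and 34.4 (rank 3740). Of 6 insulin signalling genes with a peak, akt-1, a kinase gene, had one strong in replicate 1 only (42.2, rank 2445, and 33.9, rank 3818). The FOXO factor gene daf-16 had one strong in replicate 2 only (25.3, rank 4865, and 43.8, rank 2703).

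Splicing factors had 4 of 21 (prp-31, rnp-6, rsr-2 and uaf-2), vesicle and vacuolar ATPase genes 4 of 22, Mediator, TFIID, polymerase II and Integrator genes 3 of 18, proteasome genes 2 of 14 (pbs-3 and rpn-7) and aminoacyl-tRNA synthetases 2 of 7 (aars-1 and yars-2). Collagens had 1 of 7 (col-166) and neuropeptides 1 of 3 (nlp-24). No gene of the DREAM and synMuv B, chemoreceptor or synaptic lists did, each with 7 genes that had a peak. By a rough limit, 3 divided by 7, the count of 0 in each allows a share of up to 42.9%. The homeobox, heterochronic and germline lists had 2, 2 and 1 genes with a peak, all strong in both.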

How the data were processed

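Both samples belong to 1 group (RBR-2-GFP, L4) and are biological replicates 1 and 2 by their labels. Per the labels and the text deposited with the files, the authors called regions for each replicate and for the pooled replicates against a control, and derived the optimal list from them by the IDR procedure. The aligner, the caller, their versions and the IDR threshold are not given in the sources used here, and control reads were not analysed here. The column used is the authors' deposited signal value per region. Depth is unknown, since the lists hold no read counts.

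Regions were ranked by signal within each list, which held 26742 regions in replicate 1, 28724 in replicate 2 and 30000 in the pooled list. The optimal list is the 3442 highest regions of the pooled list. Regions were matched between lists when their summits lay 200 bp apart or less. Peaks were annotated with Ensembl release 115 and the RefSeq genome, both of WBcel235 (ce11); 19973 nuclear protein-coding genes were used. A 5′ end is the annotated start of a protein-coding gene, and a summit takes its first class in the order short RNA gene, coding exon, 5′ UTR, 3′ UTR, other noncoding exon, intron, intergenic. Shares carry exact Clopper-Pearson 95% intervals, and no test was run. The classification was tested on simulated lists with widely spaced summits and clearly separated signals. That test could not show errors from neighbouring summits or from signals near the rank limit. Python 3.11.15, pandas 2.3.3 and scipy 1.17.1 were used.

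The members and gene lists were chosen with earlier results of these data known. Named peaks were, in each direction, the 10 with the highest pooled signal near 5′ ends, the 3 strongest distal, the 3 with the largest rank ratio and the 3 strongest at short RNA genes, up to 3 of each gene list, all those at H3K4 genes, and 3 on each side of the rank limit. Alternatives were other matching distances, interval overlap, 2500 or 5000 top regions and each direction alone. Further ones were peaks within the members' interquartile range of pooled signal, other windows, ce10 lists and lists without mitochondrial regions. One peak and one summit sequence that the naming rule selects are not reported here.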

Additional observations from a re-analysis of the deposited data

How the results depend on the processing

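The rule was rerun under 15 alternative settings, 1 of them (members that overlap no top region of the other replicate) chosen after seeing the data. Of 182 recomputed values, 156 stayed close to the reported value: shares within its counting interval, differences within the 95% half-width, GC within the 95% interval of the median (its difference within that interval's width) and numbers of peaks within 1.5 times. That count is no measure of robustness. The half-width exceeded the difference itself for X (3.19 points, difference −3.08) and GAGAGA (4.09, −3.74), so a vanished difference would count as close there. Several settings also share most of their members with the main one. The number of one-replicate peaks was 709, and 216 with the top 5000 regions of each replicate. The top 5000 also gave shares of 33.5% near 5′ ends, 8.84% in coding exons (7.09 points above peaks strong in both) and 37.7% with GAGAGA. It left 4.60% of genes with peaks strong in one replicate only. The top 2500 gave 9.59% at short RNA genes and 20.2% of genes. The recomputed differences from peaks strong in both were smaller, or changed sign, when both classes were limited to the members' interquartile range of pooled signal. Those that changed sign were 1.85 points for 5′ ends (−8.24 over all peaks), −0.665 for introns (3.90), 1.12 for repeated sequence (−3.70, with a share of 7.37% in members) and 2.50 for GAGAGA (−3.74). Those that shrank were −1.28 for short RNA genes (−5.27), 0.742 for TTTTTTTT (5.21), 0.210 for coding exons (2.49), −2.73 for X (−3.08) and −1.49 for GC (−2.49). Other features lay further apart in that range, among them another summit within 1000 bp (9.92% against 21.5%), CACGTG (4.53% against 0.694%), the 5′ UTR (16 of 353 against 0 of 144, exact 95% interval up to 2.53%), chromosome II (14.7% against 7.64%) and chromosome III (16.7% against 24.3%). The cause was not tested. Taken alone, replicate-1-only and replicate-2-only peaks had 1.99% and 6.18% in coding exons, 0.387 and 4.57 points above peaks strong in both. Other windows moved the 5′ share by construction: 27.6% within 250 bp (−3.55 points), 48.5% within 1000 bp and 44.7% with the starts of all transcripts. With the summit inside the short RNA gene the share was 3.39% (−1.69 points). The ce10 lists and the lists without mitochondrial regions kept the number of peaks within 1.5 times. No paired analysis was possible because there is 1 group, and no replicate could be left out because the rule needs both. Depth is unknown and there are 2 libraries: how far a rank would move on repeating a replicate is not known.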
